A study of Mus musculus with 12 samples.

Results

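Old mouse bone marrow stromal cells labelled as treated with melatonin are compared here with old cells labelled as given vehicle, across all genes. The 6 libraries that enter the comparison were taken by their labels from a series of 12 libraries, and no measured value was used to choose them. They comprise old vehicle libraries 1, 3 and 5 and libraries labelled melatonin 1, 3 and 5, where the numbers are those of the titles. The cells are labelled as MSCs (mesenchymal stem cells, also called stromal cells) of bone marrow. They were cultured in DMEM with 10% FBS, and the treatment protocol, worded alike for vehicle and melatonin libraries, gives 1 µM melatonin for 24 h, so that the groups rest on the titles and the treatment labels. Per the labels both groups are old and their RNA was extracted with Trizol and sequenced on the BGISEQ500 platform; the sources used here do not give strain, sex, age in months or what the vehicle was. The other 6 libraries, 3 young vehicle and 3 further old vehicle, form a separate table. They serve below to compare whole libraries and the levels of a few genes. The 3 further old vehicle libraries also enter an alternative fit. The question behind the comparison, by the series title, is the effect of melatonin on osteoblast formation from senescent MSCs by way of NSD2.

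Melatonin is the hormone of the pineal gland that signals darkness. It acts mainly through the G protein-coupled receptors MT1 and MT2, which lower cyclic AMP, and it also scavenges oxidants. MSCs of the marrow can become osteoblasts or adipocytes, and with age they tend to enter senescence, a lasting arrest of the cell cycle accompanied by secretion of cytokines and proteases. NSD2 methylates histone H3 at lysine 36 (H3K36), a mark of active chromatin.

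Library totals ran from 20623250 to 21275389 estimated counts, with 15591 to 16550 genes detected. Whether each library is a separate animal or culture is not labelled, so p-values measure only the spread between these libraries. That spread was wide, with a biological coefficient of variation of 0.482 over 13471 tested genes, and an exact permutation test of 3 libraries against 3 cannot give a p below 0.1. Levels are counts per 1000000 library counts (CPM) scaled by TMM, a normalization of library sizes, and are listed in the order of the label numbers 1, 3 and 5. Differences are log2 changes, labelled melatonin minus old vehicle, with their standard error (SE) and n = 3 libraries per group.

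Whole-library correlations went against the group labels, so the treated libraries are called labelled melatonin throughout. Across 13471 genes, each of the 6 libraries correlated best with 1 library of the other table, at r = 0.979 to 0.995. Old vehicle libraries 1, 3 and 5 matched old vehicle libraries 2, 8 and 9. Labelled melatonin libraries 1, 3 and 5 matched young vehicle libraries 2, 4 and 5, and none of them matched an old one. Within a group of the melatonin table r was only 0.872 to 0.944. The counts of matched libraries differed by 1.76 to 5.96 times the median chi-square that counting error alone gives, against at least 23.6 times for the closest pair within a group. By this measure, scaled by library totals alone, matched libraries differed by more than counting error. Whether matched libraries share a sample, animal, culture or label was not tested. A difference that goes with the melatonin label and one that goes with the likeness to young libraries cannot be told apart in this comparison. Scaled over all 12 libraries, Nsd2 was at 41.2, 137 and 77.1 CPM in the labelled melatonin libraries and at 48.4, 139 and 63.9 CPM in young libraries 2, 4 and 5. Loxl2, a crosslinking enzyme of collagen, was at 14.6, 14.4 and 2.17 CPM in the labelled melatonin libraries and at 20.4, 15.1 and 2.47 CPM in those young libraries, and no lower than 163 CPM in any of the 6 old vehicle libraries.

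**Figure D1:**
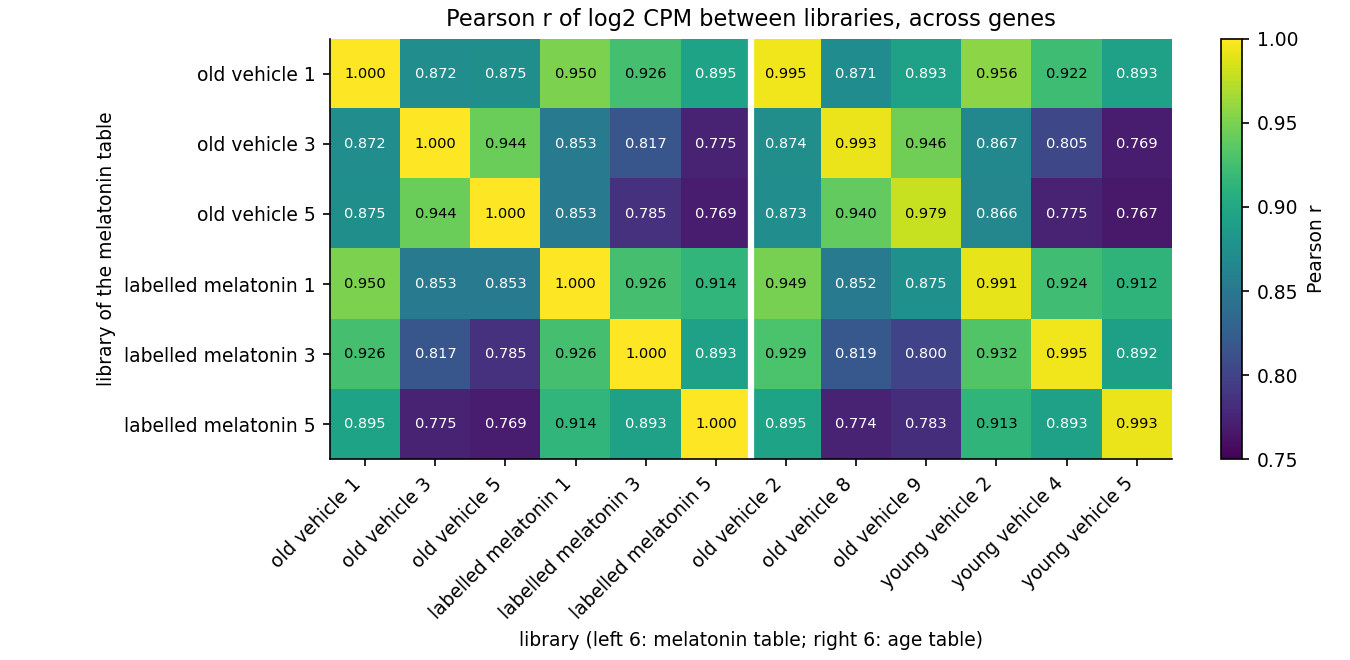
Pearson r of log2 CPM across 13471 genes between the 6 libraries of the melatonin table (rows) and all 12 libraries (columns), with the value in each square. Each labelled melatonin library has its highest r outside the diagonal with a young vehicle library, and old vehicle library 1 is closer to the labelled melatonin libraries (0.895 to 0.950) than to old vehicle libraries 3 and 5 (0.872 and 0.875).

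Old vehicle library 1 also stood apart from old vehicle libraries 3 and 5 in the content of macrophage transcripts. Macrophages adhere with MSCs when marrow is cultured, and their list had the largest median difference of the 23 lists plotted further on. Csf1r, the receptor for macrophage growth factor CSF1, was at 45.5, 673 and 672 CPM in old vehicle and at 27.1, 5.01 and 6.16 CPM in labelled melatonin libraries (log2 change -5.18 ± 1.27). Itgam, the CD11b integrin chain, was at 12.1, 615 and 699 CPM and 9.6, 2.24 and 3.16 CPM (log2 change -6.46 ± 1.58). Cd68, a lysosomal protein of macrophages, was at 50.9, 1218 and 509 CPM and 47.8, 7.56 and 10.6 CPM (log2 change -4.75 ± 1.35). In all 3 genes the high levels were in old vehicle libraries 3 and 5, while old vehicle library 1 was far nearer to labelled melatonin library 1 than to them. The same held across the list, since all 19 tested macrophage genes had their 2 highest levels in old vehicle libraries 3 and 5, against 19.2% of all genes. The scavenger receptor Msr1 and the Fc receptor Fcgr1 had log2 changes of -5.70 ± 1.43 and -6.54 ± 1.67. Summed over 20 macrophage genes, the level was 1058, 19962 and 15944 CPM in old vehicle and 878, 99.2 and 185 CPM in labelled melatonin libraries, and none of the 20 was at 0 throughout. The median log2 change of the 19 tested genes was -5.19, or -1.31 when old vehicle libraries 3 and 5 were left out. Leaving them out keeps old vehicle library 1 alone in its group, and the fit then assumes that it varies like the other group. In bulk RNA, fewer cells of a type and less RNA per cell cannot be told apart.

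Markers of blood cells other than macrophages were low. Neutrophil, B cell and erythroid genes summed to at most 7.4 CPM in any library. Of the T and NK genes, Cd3e, Cd3g and Gzma had at most 1 count in any library, while Cd4 reached 86.0 CPM in old vehicle library 3 and 0.833 CPM or less elsewhere. Endothelial genes summed to 5.76 to 63.2 CPM, with the VEGF receptor gene Kdr at 22.1, 5.05 and 0.686 CPM in old vehicle and 61.2, 35.0 and 0.301 CPM in labelled melatonin libraries, while Pecam1 and Cdh5 did not pass the count filter. Osteoclast genes summed to 45.5 to 196 CPM, of which the protease gene Ctsk, also expressed by stromal cells, was at 47.0, 18.6 and 33.7 CPM and 72.6, 17.8 and 66.0 CPM and the calcitonin receptor gene Calcr at 0.147 CPM or less. Chondrocyte genes summed to 37.8 to 240 CPM. Among them the collagen II gene Col2a1 was at 33.0, 16.7 and 158 CPM and 5.59, 4.57 and 0.0501 CPM (log2 change -4.34 ± 1.48), lower in every labelled melatonin library than in any old vehicle library. The cartilage matrix gene Comp was at 159.8, 7.04 and 29.9 CPM and 108, 0.571 and 35.2 CPM with overlapping groups, and Acan, which encodes aggrecan, was at 0.0932 CPM or less. The part of such cells in the results was not tested. Mesenchymal markers were present in all 6 libraries, with Pdgfrb, the PDGF receptor beta, at 697, 175 and 419 CPM and 602, 485 and 660.5 CPM, and the 14 stromal genes summed to 4406 CPM or more in each. Thy1, a surface glycoprotein used to define MSCs, was at 597, 13.7 and 15.9 CPM in old vehicle and 431, 155 and 297 CPM in labelled melatonin libraries, so its low levels were in the libraries rich in macrophage transcripts. Vcam1, an adhesion molecule, was at 96.5, 181 and 193 CPM and 23.5, 38.8 and 84.8 CPM, and the leptin receptor Lepr at 25.8, 0.969 and 1.81 CPM and 0.373, 0.352 and 0 CPM. For Vcam1 and Lepr the groups did not overlap, with log2 changes of -1.68 ± 0.53 and -5.25 ± 1.71.

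**Figure D2:**
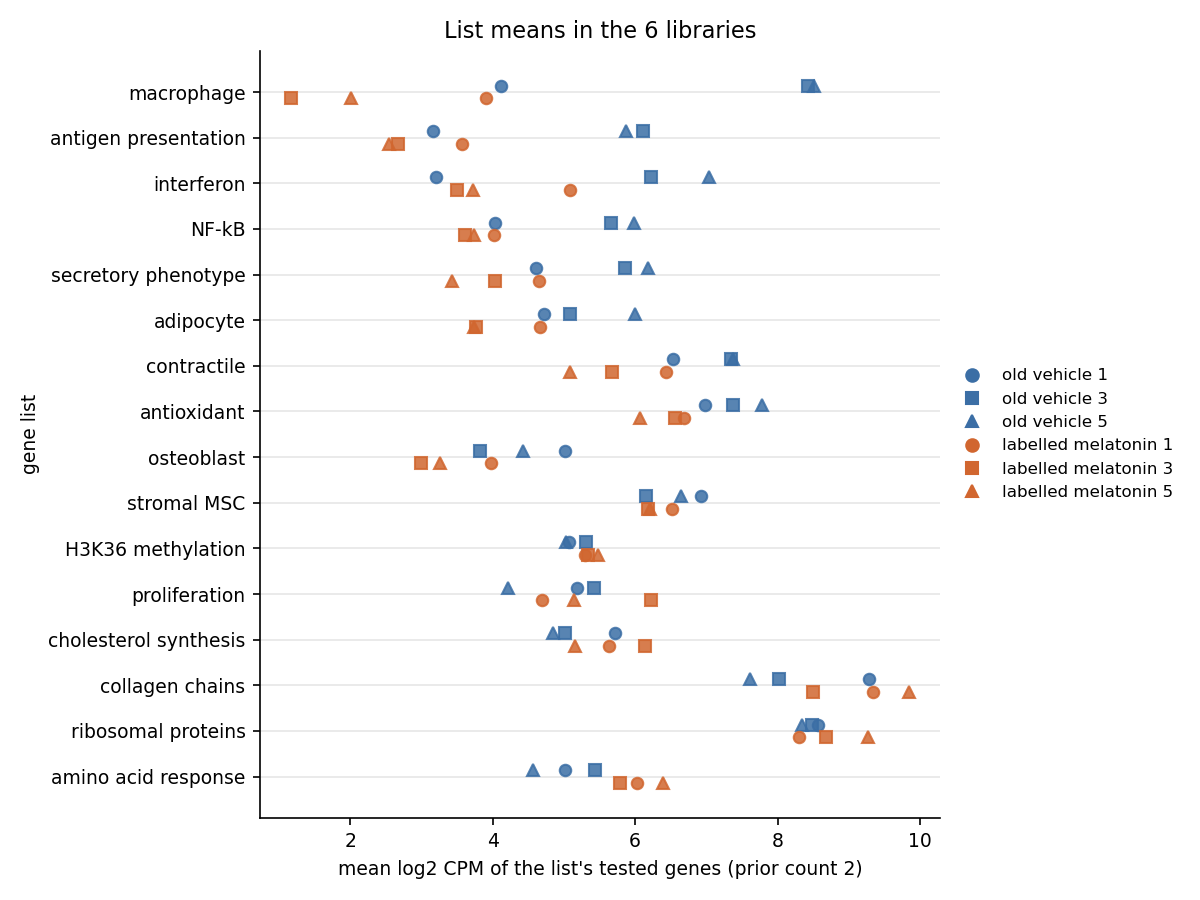
Mean log2 CPM of the tested genes of 16 lists in each library, with old vehicle in blue and labelled melatonin in orange and the symbol giving the label number. Macrophage, antigen presentation and interferon genes separate old vehicle libraries 3 and 5 from the other 4 libraries, while the mean of the amino acid response list is lower in all 3 old vehicle libraries (4.57 to 5.44) than in the 3 labelled melatonin libraries (5.79 to 6.39).

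No gene passed an adjusted p of 0.05 in edgeR's quasi-likelihood test, with 0 of 13471 called (0%) and a smallest adjusted p of 0.286. The log2 change was above 0 for 51.7% of genes and below 0 for 48.3%. At an unadjusted p under 0.05 there were 1914 genes (14.2%), 641 higher (4.76%) and 1273 lower (9.45%) in the labelled melatonin libraries. The call depended on the method and on 1 library. DESeq2 called 895 of 13471 genes (6.64%), 187 higher (1.39%) and 708 lower (5.26%). Without old vehicle library 1 edgeR called 602 of 13914 genes (4.33%), 69 higher (0.496%) and 533 lower (3.83%). Of these calls 394 genes were shared, 44% of the DESeq2 calls and 65.4% of those made without old vehicle library 1. The groups did not overlap in CPM for 1224 higher genes (9.09%) and 1318 lower genes (9.78%), or 1584 and 997 when CPM was scaled by library totals alone. The gene values below therefore carry no call by edgeR over all 6 libraries, and calls by DESeq2 are named as such. The gene lists were chosen with earlier results of these data known, so their shares beside those of all genes are no separate support. Of 18908 genes in the table, 13471 passed the filter on low counts and entered the test.

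Among genes expressed above the median whose groups did not overlap, the genes with the smallest p-values on the lower side included Efnb1, Glipr1, Rassf3, Loxl2, Prdx6, Ampd3, Ugt1a7c, Aldh2, Sorbs2, Emp3 and Rab32. Efnb1, the Eph receptor ligand ephrin-B1, was at 209, 139 and 210.1 CPM in old vehicle and at 40.7, 45.3 and 27.5 CPM in labelled melatonin libraries (log2 change -2.30 ± 0.28). Loxl2 was at 289, 266 and 246 CPM and 14.9, 13.8 and 2.15 CPM (log2 change -4.70 ± 0.75). In both genes old vehicle library 1 sat with old vehicle libraries 3 and 5, although it carried few macrophage transcripts. DESeq2 called all 11 genes named here as lower. Small p in these same libraries had selected them, so those calls are no separate support. Loxl2 was at 304, 253 and 163 CPM in old vehicle libraries 2, 8 and 9 on the scale of all 12 libraries. Those libraries are the closest matches of old vehicle libraries 1, 3 and 5, so these levels are no separate support either. Ampd3, an AMP deaminase, differed by -2.45 ± 0.42, Aldh2, a mitochondrial aldehyde dehydrogenase, by -1.32 ± 0.24, and the small GTPase Rab32 by -1.10 ± 0.22. Glipr1, Rassf3, Sorbs2 and Emp3 had log2 changes of -4.75 ± 0.65, -2.12 ± 0.31, -2.21 ± 0.42 and -0.93 ± 0.18. Ugt1a7c (-2.12 ± 0.37) encodes a glucuronosyltransferase from a locus whose transcripts share exons, so its counts are uncertain.

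On the higher side the genes were Psip1, Tcf4, Tanc1, Hivep2, Ppic, Tia1, Serinc5, Gabbr1, Phgdh, Sox4, Lrfn4 and Ajuba. Tcf4, a basic helix-loop-helix transcription factor, was at 138, 77.4 and 94.9 CPM in old vehicle and 295, 269.9 and 319 CPM in labelled melatonin libraries (log2 change 1.51 ± 0.25). Tanc1, a scaffold protein, was at 64.5, 50.4 and 53.3 CPM and 98.9, 99.8 and 113 CPM (log2 change 0.89 ± 0.17). Sox4, a transcription factor of progenitor cells, was at 148, 136 and 95.2 CPM and 234, 275 and 227 CPM (log2 change 0.96 ± 0.22). The 3 labelled melatonin libraries lay close together for each of these genes, and old vehicle library 1 was the highest of its group. Selection by small p favours such a small spread. Smaller separated differences were those of the cyclophilin gene Ppic (0.88 ± 0.18), the RNA-binding protein gene Tia1 (0.69 ± 0.15), the membrane protein gene Serinc5 (0.78 ± 0.18) and the LIM protein gene Ajuba (0.74 ± 0.18). The zinc finger factor Hivep2, the GABA-B receptor subunit Gabbr1 and the adhesion protein Lrfn4 had log2 changes of 1.08 ± 0.21, 1.21 ± 0.28 and 1.15 ± 0.27. DESeq2 called all 12 genes as higher, which is likewise no separate support, as the same libraries selected them. The log2 changes ran from 0.69 to 1.51 for these 12 higher genes and from -4.75 to -0.93 for the 11 lower ones named.

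**Figure D3:**
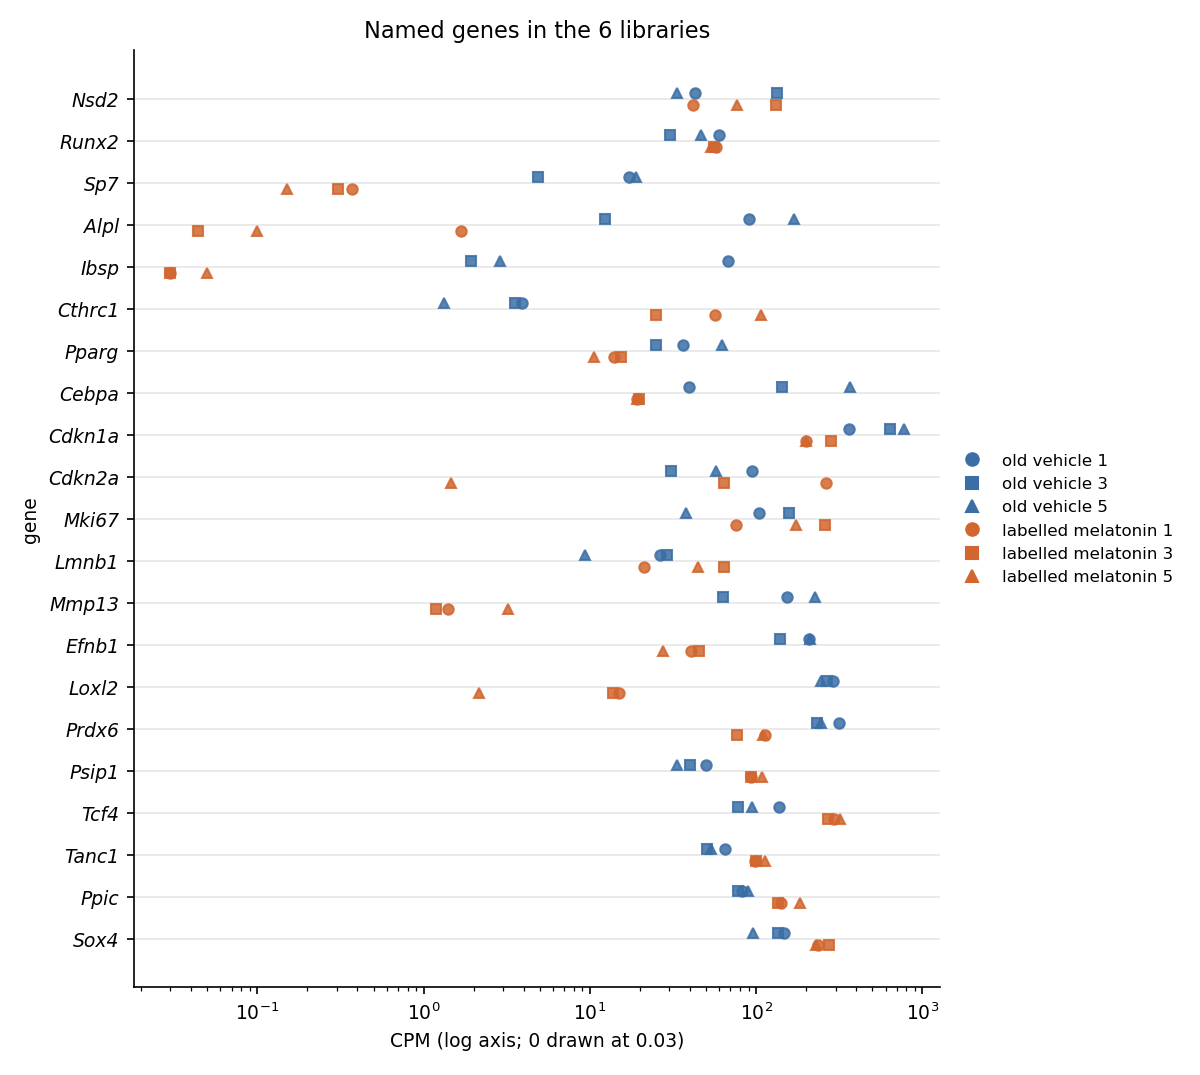
CPM of 21 named genes in each library on a log axis, with old vehicle in blue, labelled melatonin in orange and the symbol giving the label number. Sp7, Alpl, Ibsp, Mmp13, Efnb1 and Loxl2 are lower and Cthrc1, Psip1 and Tcf4 higher in all 3 labelled melatonin libraries, while Nsd2, Runx2, Cdkn2a and Mki67 overlap between the groups.

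Transcripts of the melatonin receptor gene Mtnr1a were close to absent. Mtnr1a, which encodes MT1, had 0 counts in the 3 old vehicle libraries and 1, 1 and 0 counts in the labelled melatonin libraries, below the 3 counts (0.132 to 0.153 CPM) that a count of 0 allows. Mtnr1b, which encodes MT2, was not analysed here. Of 26 genes for melatonin receptors, G proteins, synthesis and breakdown, 15 were tested, 7 higher and 8 lower, with a median log2 change of -0.40. That median was -0.018 without old vehicle library 5, -0.046 without labelled melatonin library 5 and -0.23 without labelled melatonin library 3, and it turned to 0.077 with the mean of the macrophage list as a covariate. Gnaq, a G protein alpha subunit, was at 124, 222 and 222 CPM and 127, 87.6 and 102 CPM (log2 change -0.85 ± 0.29), highest in the libraries rich in macrophage transcripts. Nqo2, a quinone reductase also known as the MT3 binding site, was at 45.8, 53.9 and 45.3 CPM and 36.6, 42.1 and 26.1 CPM (log2 change -0.47 ± 0.22). For Nqo2 the labelled melatonin libraries all lay below the old vehicle libraries. The sulfotransferase Sult1a1 differed by -1.56 ± 0.84, less than its spread between libraries.

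Nsd2 itself did not separate the groups. It was at 42.9, 134 and 33.3 CPM in old vehicle and 41.9, 131 and 76.8 CPM in labelled melatonin libraries, and the log2 change was 0.25 ± 0.65 (edgeR, adjusted p = 0.877). The groups overlapped, with the highest level of each group in library 3, and the sign turned to -0.25 without labelled melatonin library 3, to -0.076 without old vehicle library 5 and to -0.0045 without old vehicle library 1. Its relatives Nsd1 and Nsd3, which also methylate H3K36, differed by 0.30 ± 0.16 and 0.22 ± 0.14. Among 23 genes that write, erase or read H3K36 methylation, 19 were higher, with a median of 0.21 beside 0.02 over all genes, and 6 had groups that did not overlap, all higher, against 9.09% of all genes. Setd2, the enzyme that places the trimethyl mark, was at 95.7, 87.4 and 81.8 CPM and 122, 129 and 158 CPM (log2 change 0.63 ± 0.17). Ash1l, a dimethyltransferase, was at 115, 98.6 and 87.0 CPM and 147, 145 and 155 CPM (log2 change 0.57 ± 0.17). Psip1, which encodes the H3K36 reader LEDGF, was at 49.7, 40.1 and 33.6 CPM and 92.6, 93.2 and 108 CPM (log2 change 1.25 ± 0.20). These differences were modest next to those of the macrophage list, and DESeq2 called these 3 of the 23 genes as higher, against 1.39% of all genes. Dnmt3b, a DNA methyltransferase that reads the mark, was at 2.64 CPM or less in every library and differed by 0.76 ± 0.37. Leaving out old vehicle libraries 3 and 5 gave a median of 0.23, with 20 of 23 higher.

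Osteoblast genes differed in both directions. Of 29 tested members 13 were higher and 16 lower (median log2 change -0.85), and groups did not overlap for 2 higher and 8 lower genes, against 9.09% and 9.78% of all genes. Sp7, the transcription factor osterix that osteoblasts need, was at 17.3, 4.84 and 18.8 CPM in old vehicle and 0.373, 0.308 and 0.15 CPM in labelled melatonin libraries (log2 change -5.59 ± 0.72). Alpl, the alkaline phosphatase of mineralization, was at 90.3, 12.4 and 168 CPM and 1.68, 0.0439 and 0.10 CPM (log2 change -7.20 ± 1.61). Ibsp, which encodes bone sialoprotein, had 1436, 38 and 59 counts in old vehicle and 0, 0 and 1 counts in labelled melatonin libraries. All 3 genes were lower in every labelled melatonin library than in any old vehicle library, including the macrophage-poor old vehicle library 1, where Ibsp was highest. Runx2, the earlier master regulator of the lineage, was at 59.4, 30.4 and 46.6 CPM and 57.2, 55.7 and 53.2 CPM, a log2 change of 0.28 ± 0.26 that turned to -0.097 without old vehicle libraries 3 and 5. Bglap, the osteocalcin gene, was under 1 CPM in all libraries and shares reads with its near-identical neighbour Bglap2, and its log2 change was 0.17 ± 1.02. Of the transcription factors 2 of 8 were higher (median -0.87), of the mineralization genes 5 of 10 (median -0.49) and of the signalling genes 0 of 5 (median -1.72). The 6 matrix genes of the list were all higher, with a median of 1.59, and a difference between these roles was not tested. For only 1 of the 6 did the groups not overlap. Their mean log2 CPM was 9.16, 7.92 and 7.21 in old vehicle and 9.58, 8.36 and 11.3 in labelled melatonin libraries. The means overlapped between the groups and were highest in labelled melatonin library 5. Cthrc1, a secreted matrix protein, was at 3.93, 3.57 and 1.32 CPM and 56.3, 25.1 and 107 CPM (log2 change 4.41 ± 0.71). Atf4, a transcription factor that osteoblasts use for collagen synthesis, was at 203, 207 and 166 CPM and 301, 253 and 378 CPM (log2 change 0.70 ± 0.21). DESeq2 called 5 members, Cthrc1 as higher (1.39% of all genes) and 4 as lower (5.26% of all genes), among them Sp7 and Alpl. Without old vehicle library 1, edgeR called 2 of the 29 members, Sp7 and Ibsp, as lower, against 3.83% of all genes. The median of the list was -0.81 without old vehicle libraries 3 and 5 and -0.66 with the covariate. Single libraries moved it more, to -0.35 without old vehicle library 1, -0.56 without old vehicle library 5, -1.48 without labelled melatonin library 1, -0.55 without labelled melatonin library 3 and -0.48 without labelled melatonin library 5.

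Adipocyte genes were mostly lower, 13 of 19 tested, with a median log2 change of -1.17 and 5 lower genes whose groups did not overlap, against 9.78% of all genes. Pparg, the main regulator of adipocyte formation, was at 36.5, 24.8 and 62.1 CPM in old vehicle and 14.0, 15.3 and 10.5 CPM in labelled melatonin libraries (log2 change -1.63 ± 0.38). Cebpa, which acts with it, was at 39.2, 142 and 364 CPM and 19.2, 19.9 and 19.1 CPM (log2 change -3.23 ± 0.78). The adipokine gene Adipoq was at 0.71, 3.21 and 5.64 CPM and 0.14, 0.0879 and 0.0501 CPM. Pparg was lower throughout and did not follow macrophage content within the old vehicle group, whereas Cebpa and Adipoq were highest in old vehicle libraries 3 and 5. The fatty acid transporter Cd36, which macrophages also express, was at 5.4, 595 and 339 CPM and 3.12, 1.27 and 0.501 CPM (log2 change -7.58 ± 1.81). DESeq2 called 5 members as lower, including these 4, against 5.26% of all genes. The median was -0.45 without old vehicle library 5, -0.15 without old vehicle libraries 3 and 5 and -0.29 with the covariate, the latter pair with 7 of 19 higher, and the part of macrophage content in the difference was not tested.

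Genes of senescence arrest split evenly, 11 of 23 being higher, and their median log2 change was -0.01, or -0.20 to 0.11 when single libraries were left out. Cdkn1a, the gene of the arrest protein p21, was at 361, 638 and 772 CPM in old vehicle and 198, 282 and 199.9 CPM in labelled melatonin libraries (log2 change -1.38 ± 0.34). The p53 target genes Bax, which promotes apoptosis, and Zmat3, an RNA-binding protein gene, were at 106, 124 and 138 CPM and 112, 107 and 123 CPM in old vehicle and at 66.3, 87.8 and 63.9 CPM and 86.4, 73.5 and 56.4 CPM in labelled melatonin libraries. For Cdkn1a, Bax and Zmat3 the groups did not overlap, and the log2 changes of Bax and Zmat3 were -0.76 ± 0.20 and -0.66 ± 0.20. In the whole list the groups did not overlap for 3 higher and 4 lower genes, against 9.09% and 9.78% of all genes. Of the 12 genes of p53 and its targets 4 were higher (median -0.45), and 2 higher and 2 lower ones had separated groups. Of the 7 genes of cyclin-dependent kinase inhibitors 5 were higher (median 0.85). Gdf15, a stress cytokine, was at 7.1, 131 and 53.1 CPM and 7.32, 2.07 and 0.651 CPM (log2 change -4.25 ± 1.31), high only in the libraries rich in macrophage transcripts. Trp53, the gene of p53, differed by 0.05 ± 0.23. Cdkn2a, whose products include the senescence marker p16, was at 93.8, 30.5 and 57.0 CPM and 262, 64.0 and 1.45 CPM. It spanned more within the labelled melatonin group than between the groups (log2 change 0.85 ± 1.39), and counts per gene do not tell its products apart. Cdkn1c, the inhibitor p57, went opposite to Cdkn1a, at 4.17, 1.63 and 2.74 CPM and 106, 4.26 and 12.6 CPM (log2 change 3.84 ± 1.26). That value rests mainly on labelled melatonin library 1. Lmnb1, the lamin B1 gene that senescent cells lose, was at 26.3, 29.3 and 9.36 CPM and 21.3, 64.0 and 44.5 CPM (log2 change 1.00 ± 0.56). Of the 23 genes DESeq2 called Cdkn1a, Bax and Gdf15 lower, against 5.26% of all genes, and Cdkn1c higher, against 1.39% of all genes.

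Genes of the secretory phenotype of senescent cells were mostly lower, 29 of 35 tested, with a median log2 change of -1.04 and 9 lower and 1 higher gene whose groups did not overlap, against 9.78% and 9.09% of all genes. Mmp13, a collagenase of bone and cartilage, was at 153, 62.8 and 224 CPM in old vehicle and 1.4, 1.19 and 3.21 CPM in labelled melatonin libraries (log2 change -6.25 ± 0.70). Mmp3, the protease stromelysin-1, was at 8.95, 14.1 and 52.4 CPM and 0.885, 0.747 and 2.71 CPM (log2 change -4.12 ± 0.92). Both proteases were lower in all 3 labelled melatonin libraries, and for Mmp13 old vehicle library 1 lay above old vehicle library 3. The cytokine and chemokine genes had another pattern. Tnf was at 0.521, 40.8 and 63.0 CPM and 0.699, 0.22 and 0.351 CPM (log2 change -6.34 ± 1.66), and Ccl2, which attracts monocytes, was at 35.4, 235 and 315 CPM and 28.7, 29.1 and 8.62 CPM (log2 change -3.14 ± 0.89). Both were high only in old vehicle libraries 3 and 5, and all 9 tested chemokines had lower group levels, with a median of -3.14. Without old vehicle libraries 3 and 5 the median of the whole list was -0.30, with 12 of 35 higher, and -0.58 without old vehicle library 5 alone. It was 0.21, with 18 of 35 higher, when the fit took the macrophage mean as a covariate, so the sign held without those libraries and turned with the covariate. Leaving out labelled melatonin library 1 or 3 gave -1.62 or -1.57.

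Proliferation genes were higher in the labelled melatonin libraries for 33 of 37 members, with a median log2 change of 0.51, but for none did the groups separate. Mki67, whose protein marks dividing cells, was at 104, 157 and 38.0 CPM in old vehicle and 75.1, 258 and 173 CPM in labelled melatonin libraries (log2 change 0.76 ± 0.63). The mitotic genes with the smallest p-values, Cenpe, Kif23, Bub1b and Ccnb1, had log2 changes of 0.93 ± 0.54, 1.12 ± 0.67, 0.90 ± 0.56 and 0.86 ± 0.57. All 37 genes had their highest level in labelled melatonin library 3, against 18.1% of all genes. Without that library the median was -0.03 and 16 of 37 were higher, and the covariate brought it to -0.41. It was 0.25 without old vehicle library 5 and 0.81 without old vehicle library 3. Nsd2 shared this order in part, as its highest levels were in old vehicle library 3 and labelled melatonin library 3, which had the highest proliferation means (5.43 and 6.23 log2 CPM).

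Amino acid response genes were higher in the labelled melatonin libraries, and their median kept its sign in all 14 alternatives, between 0.74 and 1.36. This response is driven by the transcription factor ATF4, which cells raise when amino acids are short or the endoplasmic reticulum is stressed, and which binds C/EBP-ATF response elements in enzymes and transporters of amino acids. Of 14 listed genes 12 were higher (median log2 change 0.96 beside 0.02 over all genes). At an unadjusted p under 0.05, 9 were higher (4.76% of all genes), and for 7 the groups did not overlap (9.09% of all genes). The list was chosen with earlier results of these data known, so neither these shares nor the kept sign is separate support. Phgdh, the first enzyme of serine synthesis, was at 90.2, 116 and 48.0 CPM in old vehicle and 216, 229 and 263 CPM in labelled melatonin libraries (log2 change 1.48 ± 0.34). Psat1, the next enzyme, was at 90.1, 103 and 39.8 CPM and 179, 223 and 276 CPM (log2 change 1.54 ± 0.39). Slc7a5, a transporter of large neutral amino acids, was at 60.6, 98.7 and 23.4 CPM and 158, 146 and 409 CPM (log2 change 1.96 ± 0.65). The 3 genes were higher in every labelled melatonin library, and old vehicle library 5 was the lowest of all 6 libraries for each. On the scale of all 12 libraries, Phgdh was at 213, 240 and 264 CPM in labelled melatonin libraries. In young libraries 2, 4 and 5 it was at 240, 218 and 270 CPM. Slc7a5 was at 156, 153 and 411 CPM and at 175, 150 and 432 CPM in the same order. None of the 14 alternatives used young libraries, so the label and the likeness to young libraries cannot be told apart here. Chac1, which degrades glutathione, was at 8.57, 10.3 and 4.12 CPM and 27.2, 11.9 and 36.4 CPM (log2 change 1.71 ± 0.53), and Ddit3, which encodes the stress factor CHOP, was at 25.8, 40.0 and 27.5 CPM and 99.6, 39.3 and 87.8 CPM (log2 change 1.28 ± 0.39). For Ddit3 labelled melatonin library 3 overlapped the old vehicle group. Asns, Slc7a1 and Shmt2 also had groups that did not overlap, with log2 changes of 1.02 ± 0.32, 0.82 ± 0.27 and 0.71 ± 0.28. They encode asparagine synthetase, a transporter of cationic amino acids and the mitochondrial enzyme that turns serine into glycine. Trib3, a target that also dampens ATF4, was at 6.82, 16.8 and 7.65 CPM and 38.9, 9.18 and 139 CPM (log2 change 2.58 ± 0.98) and was high mainly in labelled melatonin library 5. Old vehicle library 1, poor in macrophage transcripts, was below all 3 labelled melatonin libraries for 12 of the 14 genes, against 20.3% of all genes. This rests on 1 old vehicle library, and the part of macrophage content was not tested. The median was 1.21 without old vehicle libraries 3 and 5 and 1.14 with the covariate. DESeq2 called Phgdh, Psat1, Chac1 and Slc7a5 as higher, 4 of 14 against 1.39% of all genes. Without old vehicle library 1, edgeR called 0 of the list, against 4.33% of all genes.

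**Figure D4:**
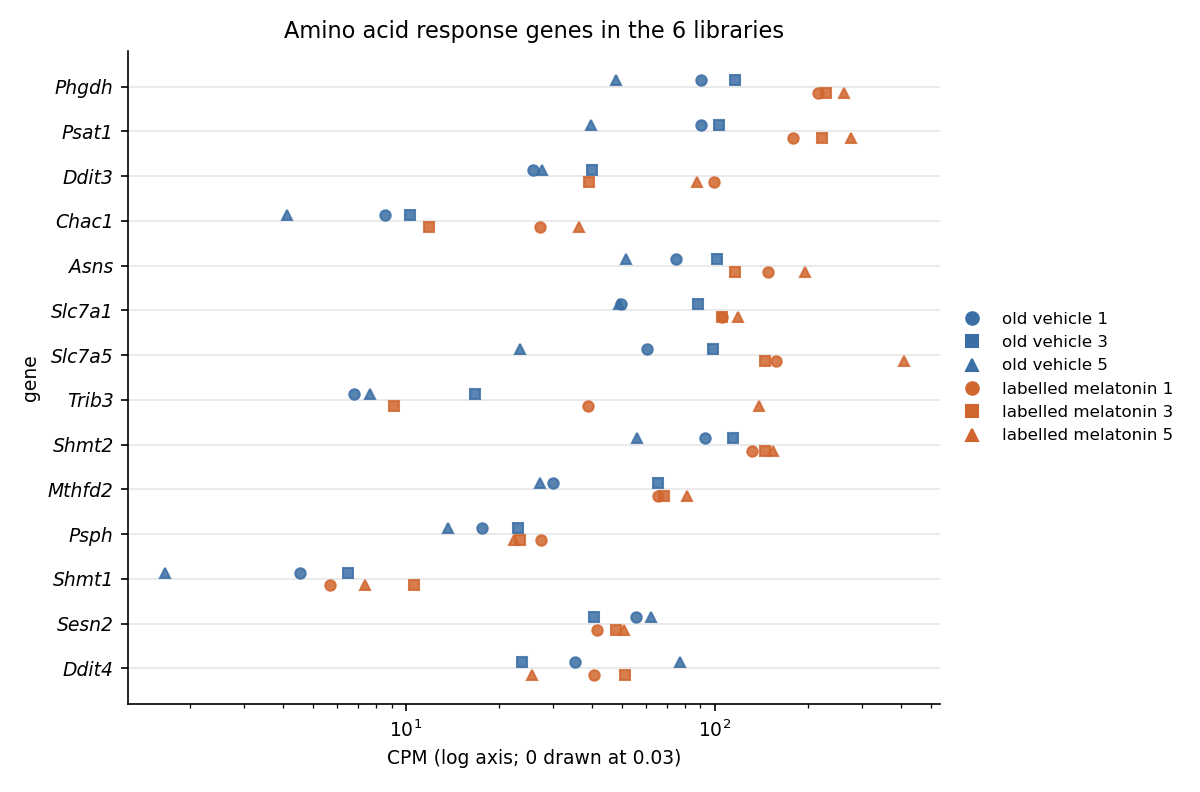
CPM of the 14 amino acid response genes in each library on a log axis, ordered by p, with old vehicle in blue, labelled melatonin in orange and the symbol giving the label number. For 7 genes, among them Phgdh, Psat1 and Slc7a5, all orange points lie to the right of all blue points, while Sesn2 and Ddit4 overlap.

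Promoter sequences are shown for these genes because the members were higher together and the response element of ATF4 has a known core. The windows ran from 250 bases before to 50 bases after the annotated starts, from RefSeq on build GRCm38.p6, and 13 of the 14 genes had an entry. The letters TGATGNAA were searched on both strands, and 3 of the 13 genes held them (Asns, Trib3 and Chac1), beside 4.51% of all 27025 genes in the table. A match describes these letters only, and the positions were not tied to the counts, whose build is mm39. In Asns the match began 23 bases upstream of the annotated start on the gene's strand, and in Chac1 it began 193 bases upstream on the opposite strand. For these genes the 250 bases upstream of the start are given 5′ to 3′ on the gene's strand, with the match in capitals, at chr6:7693210-7693459 (minus strand) for Asns and chr2:119350992-119351241 (plus strand) for Chac1. In Trib3 the match lay 14 bases downstream of the start on the opposite strand, and 30 bases around it are given, at chr2:152344028-152344057 (minus strand).
Asns: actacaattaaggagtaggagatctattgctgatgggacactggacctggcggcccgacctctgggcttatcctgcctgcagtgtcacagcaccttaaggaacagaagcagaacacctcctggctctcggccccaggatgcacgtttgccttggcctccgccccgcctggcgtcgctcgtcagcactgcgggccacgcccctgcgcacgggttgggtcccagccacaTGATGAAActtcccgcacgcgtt
Chac1: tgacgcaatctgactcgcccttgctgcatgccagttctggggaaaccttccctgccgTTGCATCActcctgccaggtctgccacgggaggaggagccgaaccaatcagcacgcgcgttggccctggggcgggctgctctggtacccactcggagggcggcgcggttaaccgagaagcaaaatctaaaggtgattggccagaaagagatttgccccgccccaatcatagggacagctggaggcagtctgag
Trib3: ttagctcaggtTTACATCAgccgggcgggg

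Collagen and matrix genes had mostly higher levels in the labelled melatonin libraries. Of 18 collagen chains 16 were higher (median log2 change 0.95), and for 2 the groups did not overlap, which is near the 9.09% of all genes. Col3a1, of fibrillar collagen III, was at 538, 573 and 700.1 CPM in old vehicle and 1268, 655 and 7719 CPM in labelled melatonin libraries (log2 change 2.41 ± 0.94). Col12a1, a fibril-associated collagen, was at 2694, 921 and 637 CPM and 11833, 1892 and 4471 CPM (log2 change 2.10 ± 0.86). The high values of these genes came from different libraries, labelled melatonin 5 for Col3a1 and labelled melatonin 1 for Col12a1. Col11a1 and Col4a5 differed by 2.48 ± 1.09 and 0.88 ± 0.36 with separated groups. Without old vehicle libraries 3 and 5 the median of the collagen list was 0.21, with 12 of 18 higher, and with the covariate it was 0.076. It was 1.75 without old vehicle library 1 and 0.54 without labelled melatonin library 5. Fbn2, the microfibril protein fibrillin-2, was at 3.17, 0.459 and 0.49 CPM and 68.9, 21.5 and 299 CPM (log2 change 6.55 ± 1.41). Fbln1, the glycoprotein fibulin-1, was at 43.9, 11.5 and 17.9 CPM and 83.0, 117 and 101 CPM (log2 change 2.04 ± 0.51). Loxl1, a crosslinker of elastin, was at 399.9, 297 and 262 CPM and 521, 673 and 653 CPM (log2 change 0.95 ± 0.24), opposite in direction to Loxl2. All 3 were higher in every labelled melatonin library. Of the 25 tested matrix enzymes and glycoproteins 18 were higher, with a median of 0.46, or -0.10 without old vehicle libraries 3 and 5 and -0.046 with the covariate. It was 0.86 without old vehicle library 1, 0.27 without old vehicle library 5 and 0.23 without labelled melatonin library 5. DESeq2 called 5 of these genes (6.64% of all genes), with these 3 among 4 higher ones and Loxl2 as the lower one.

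Contractile genes of smooth muscle were lower for 14 of 15 members, with a median log2 change of -0.89, and for 9 the groups did not overlap, against 9.78% of all genes. Acta2, smooth muscle actin, was at 3213, 4655 and 2855 CPM in old vehicle and 2049, 1824 and 1735 CPM in labelled melatonin libraries (log2 change -0.94 ± 0.29). Tagln, the actin-binding protein transgelin, was at 811, 1164 and 877 CPM and 499, 447 and 593 CPM (log2 change -0.89 ± 0.24). Mylk, the myosin light chain kinase, was at 53.5, 204 and 436 CPM and 27.2, 17.0 and 23.8 CPM (log2 change -3.35 ± 0.76). Synpo2, an actin-bundling protein, was at 9.0, 8.56 and 17.8 CPM and 2.98, 1.93 and 2.5 CPM (log2 change -2.25 ± 0.41). Old vehicle library 1 lay above all labelled melatonin libraries for 10 of the 15 genes, against 21.2% of all genes, and the median was -0.70 without old vehicle libraries 3 and 5. With the covariate it was -0.25, with 4 of 15 higher. DESeq2 called 5 members as lower, including these 4, against 5.26% of all genes.

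Antioxidant genes were lower for 19 of 24 members, with a median log2 change of -0.75. Prdx6, a peroxiredoxin that repairs oxidized lipids, was at 317, 233 and 244 CPM in old vehicle and 113, 76.7 and 110.3 CPM in labelled melatonin libraries (log2 change -1.40 ± 0.23). Gpx3, the secreted glutathione peroxidase, was at 1134, 399 and 1099 CPM and 67.3, 19.2 and 1.75 CPM (log2 change -4.90 ± 1.30). Catalase (Cat) was at 168, 421 and 449.8 CPM and 132, 93.4 and 134 CPM, and G6pdx, which supplies NADPH, at 161, 295 and 269 CPM and 133, 119 and 95.2 CPM. Prdx6 and Gpx3 were highest in old vehicle library 1, whereas Cat and G6pdx were highest in the libraries rich in macrophage transcripts. Their log2 changes were -1.53 ± 0.41 and -1.07 ± 0.28. DESeq2 called these 4 of the 24 genes, named for their small p, as lower, against 5.26% of all genes. The median of the list was -0.25 without old vehicle libraries 3 and 5 and -0.14 with the covariate. Cholesterol synthesis genes were higher for 19 of 21 members, with a median of 0.51. Their regulator gene Srebf2 was at 141, 124 and 96.0 CPM and 179.7, 203 and 182 CPM (log2 change 0.64 ± 0.19) with separated groups, and Hmgcs1, an early enzyme of the pathway, was at 106, 56.4 and 54.1 CPM and 102, 167 and 106 CPM (log2 change 0.79 ± 0.35). For 16 of the 21 the highest level was in labelled melatonin library 3, and the median was 0.20 without it, 0.32 without old vehicle library 5, 0.78 without old vehicle library 1, 0.084 without old vehicle libraries 3 and 5 and -0.24 with the covariate.

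The direction for interferon, antigen presentation and NF-kB genes turned with the choice of old vehicle libraries. Of 22 interferon-stimulated genes 21 were lower (median log2 change -1.60), yet for none did the groups separate. Oas1a, an antiviral RNA sensor from a cluster of close relatives, was at 3.5, 107 and 110.4 CPM in old vehicle and 5.41, 3.47 and 2.86 CPM in labelled melatonin libraries (log2 change -4.23 ± 1.19). Its relative Oas3 was at 5.82, 146 and 127 CPM and 7.04, 4.13 and 1.1 CPM (log2 change -4.50 ± 1.29). Ifit1, an inhibitor of viral translation, was at 16.5, 80.2 and 247 CPM and 155, 37.8 and 26.6 CPM (log2 change -0.64 ± 1.06). In each gene old vehicle libraries 3 and 5 were high or intermediate and old vehicle library 1 was low. Old vehicle library 1 was below all 3 labelled melatonin libraries for 15 of the 22 genes, against 20.3% of all genes. Without old vehicle libraries 3 and 5, 21 of 22 were higher with a median of 1.20, and with the covariate 22 of 22 were higher with a median of 2.25. Antigen presentation had 0 of 15 higher and a median of -2.96, or 9 of 15 and 0.09 without those libraries. H2-K1, a class I molecule with close relatives, was at 50.9, 802 and 1569 CPM and 75.4, 44.3 and 81.1 CPM (log2 change -3.59 ± 1.12), while the class II gene H2-Ab1 was at 0.616, 20.7 and 8.23 CPM and 0.14, 0.0879 and 0.10 CPM. NF-kB targets had 1 of 15 higher and a median of -1.68, or 9 of 15 and 0.08 without them, where Icam1, an adhesion molecule, was at 4.92, 55.9 and 58.0 CPM and 2.66, 2.64 and 0.551 CPM. Leaving out single libraries kept the sign of these 3 medians but not their size, with -0.86 for interferon and -0.54 for NF-kB genes without old vehicle library 5 and -1.44 for antigen presentation without old vehicle library 3.

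**Figure D5:**
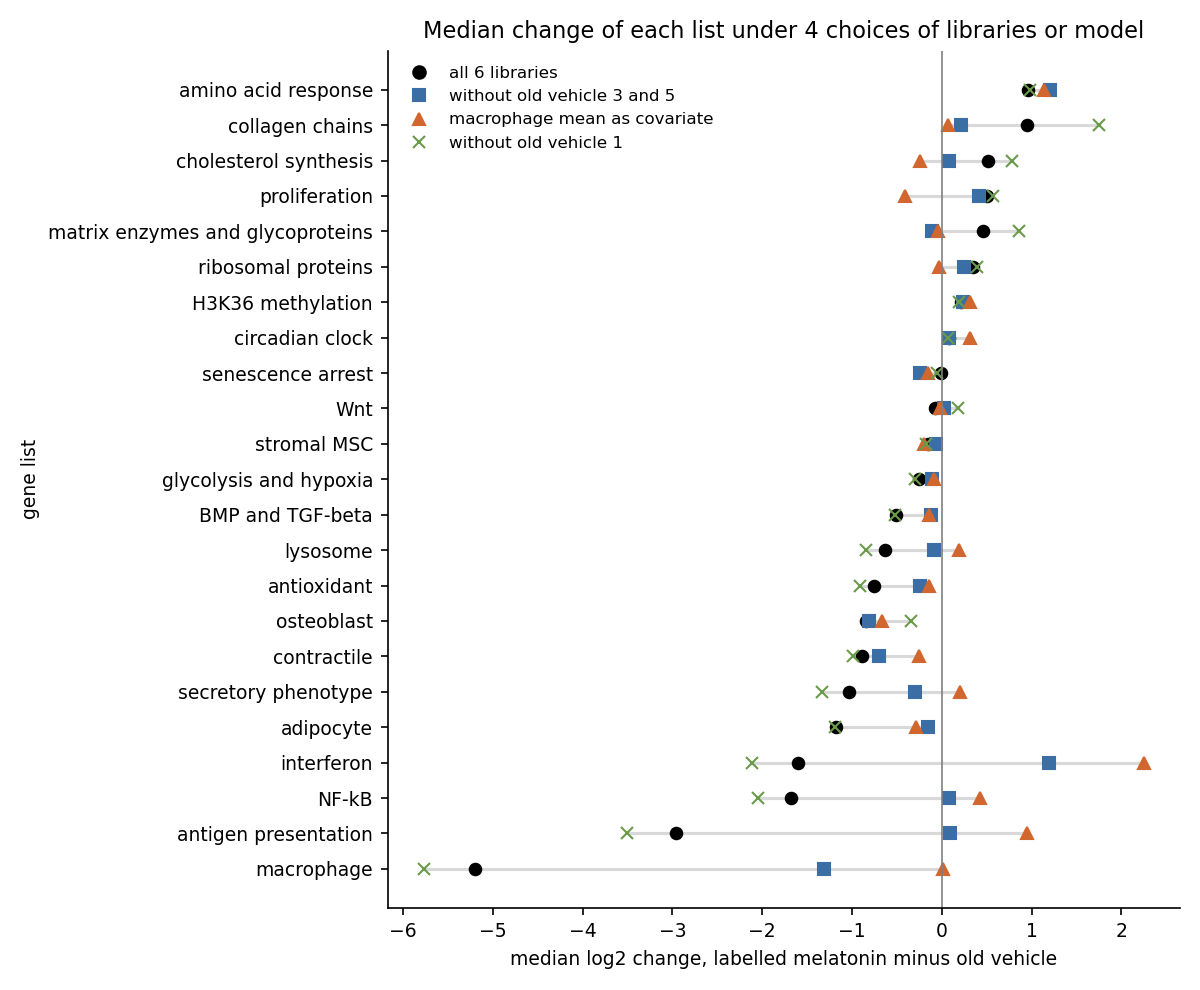
Median log2 change of the tested genes of 23 lists, labelled melatonin minus old vehicle, with all 6 libraries, without old vehicle libraries 3 and 5, with the mean of the macrophage list as a covariate, and without old vehicle library 1. The amino acid response stays between 0.96 and 1.21 in these 4 fits, the interferon list runs from -2.12 to 2.25, and the antigen presentation and NF-kB lists also cross 0.

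Signalling and clock genes differed in both directions. Of 24 Wnt pathway genes 12 were higher and 12 lower, and the median log2 change of -0.08 turned sign with single libraries left out, from -0.19 without old vehicle library 3 to 0.19 without old vehicle library 1. The secreted Wnt modulators Sfrp4 and Sfrp2 differed in opposite directions. Sfrp4 was at 1.23, 11.5 and 12.2 CPM in old vehicle and 0.559, 0.439 and 1.05 CPM in labelled melatonin libraries (log2 change -3.59 ± 0.93). Sfrp2 was at 40.7, 23.9 and 36.6 CPM and 459, 36.5 and 183 CPM (log2 change 2.74 ± 0.86), high in labelled melatonin libraries 1 and 5 and within the old vehicle range in library 3. Lrp5, a Wnt co-receptor that raises bone mass, was at 136, 92.9 and 101 CPM and 189, 158 and 195 CPM (log2 change 0.72 ± 0.21). Among 22 BMP and TGF-beta genes the groups did not overlap for 3 higher and 2 lower ones, against 9.09% and 9.78% of all genes. In this list 9 were higher, with a median of -0.51. It was -0.16 without old vehicle library 5, -0.78 without labelled melatonin library 1, -0.33 without labelled melatonin library 3, -0.12 without old vehicle libraries 3 and 5 and -0.14 with the covariate. Smad5, a transducer of BMP signals, was at 65.9, 47.5 and 40.4 CPM and 79.2, 84.0 and 107 CPM (log2 change 0.81 ± 0.24). Id2, a target of BMP signals, was at 26.8, 68.0 and 171 CPM and 24.0, 14.6 and 8.67 CPM (log2 change -2.49 ± 0.74), lowest in all 3 labelled melatonin libraries and highest where macrophage transcripts were. The BMP receptor Bmpr1b and the Notch receptor Notch2 were higher with separated groups, by 1.75 ± 0.64 and 0.45 ± 0.16. Circadian clock genes, of interest because melatonin sets the clock, were higher for 12 of 17 members with a median of 0.08, which ran from 0.008 to 0.21 when single libraries were left out. The core repressors and activators overlapped between the groups. Only Nfil3, a repressor in the output loop, separated them. That is 1 of 17 genes, against 9.09% of all genes that were higher without overlap. Nfil3 was at 33.6, 25.3 and 20.9 CPM and 51.1, 34.8 and 69.8 CPM (log2 change 0.96 ± 0.32). Npas2, a partner of the clock activator, and Hlf, an output factor, had log2 changes of 1.90 ± 0.67 and 3.37 ± 1.25 with overlapping groups.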

How the data were processed

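RNA of 12 libraries was sequenced by the submitters on the BGISEQ500 platform, per the labels' protocols. The submitters' processing notes name BWA, Bowtie2, RSEM and the mouse build mm39, without roles or versions. The authors deposited, per the file headers, an expected count, an FPKM and a TPM value per gene and library. Expected counts were rounded to whole numbers (67.8% lay within 0.005 of whole), and the other units were not used. In the melatonin table the count columns spell the vehicle label Vel and the other columns Veh.

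Genes were kept by filterByExpr of edgeR 4.0.16 (minimum count 10, minimum total 15) in R 4.3.3, scaled by TMM and tested with the quasi-likelihood test over the 6 libraries without covariates, with Benjamini-Hochberg adjustment over 13471 genes and a threshold of 0.05. CPM are counts per 1000000 library counts after TMM. Counts of 0 allow up to 3 counts, which covers counting error only. The test was checked on simulated data. Alternatives were DESeq2 1.42.0, limma 3.58.1 (voom), library totals without TMM, no filter, the label number as a replicate block, the mean of the macrophage list as a covariate, each library left out, and old vehicle libraries 3 and 5 left out. Use of old vehicle libraries 2, 8 and 9 in place of 1, 3 and 5 was added after seeing the data. Those libraries are the closest matches of the ones they replace (r = 0.979 to 0.995), so that fit is no separate support. The label numbers were not treated as pairs.

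Named genes are 14 fixed ones, the 12 with the smallest p in each direction among annotated genes above the median level whose groups did not overlap, and up to 4 with the smallest p in each list. Nsd1, Nsd3, Atf4, Cd68, Cd4, Cd3e, Cd3g, Gzma, Pecam1, Cdh5, Calcr, Acan, Pdgfrb, Thy1, Cdkn1c, Ifit1, H2-K1, Asns, Slc7a1, Slc7a5, Shmt2 and Trib3 were chosen after their values were seen. Results of some genes that the rule selects are not reported here. The members and lists were chosen with earlier results of these data known. Promoter sequences are from RefSeq (GRCm38.p6), and coordinates of the 2 builds were not mixed.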

Additional observations from a re-analysis of the deposited data

How the results depend on the processing

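The count of genes past an adjusted p of 0.05 was 0 in edgeR over all 6 libraries. It was also 0 with library totals, limma-voom, no filter, the macrophage covariate, old vehicle libraries 3 and 5 left out and old vehicle libraries 2, 8 and 9 used instead. DESeq2 gave 895, and leaving out each library in turn gave 0 to 602, with 602 without old vehicle library 1. The cause of these differences was not tested. With the label number as a replicate block the count was 0. Libraries with the same number deviated together with r = -0.247, 0.103 and -0.020, and those with different numbers with r = -0.245 to 0.307. With 3 libraries per group these values cannot show whether the numbers are pairs. The numbers were not treated as pairs because the labels state no block. At an unadjusted p under 0.05 there were 1914 genes, against 279 with the covariate and 286 without old vehicle libraries 3 and 5, where old vehicle library 1 alone is assumed to vary like the other group.

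Of 117 genes examined singly, 94 kept their sign in all 14 alternatives. The log2 change turned in the other 23. Cd68, Fcgr1 and Itgam belong to the list whose mean is the covariate, so that fit is no test of them. The covariate, in mean log2 CPM, was 4.12, 8.43 and 8.51 in old vehicle and 3.91, 1.17 and 2.01 in labelled melatonin libraries. It was higher in every old vehicle library, so the fit separates the label from macrophage content only in part. With the covariate the log2 change was -0.66 for Bglap, -0.29 for Bub1b, -0.44 for Ccnb1, 0.017 for Cd68 and 1.23 for Fcgr1. It was 0.077 for Gnaq, 1.55 for H2-K1, -0.17 for Hmgcs1, 3.22 for Ifit1 and 0.21 for Itgam. In the same fit it was -0.11 for Lmnb1, -0.15 for Mki67, 1.24 for Oas1a, 0.45 for Oas3, -0.34 for Pdgfrb, -0.16 for Runx2, 0.38 for Sult1a1, -1.08 for Thy1, 1.24 for Tnf and -0.16 for Trp53. Without old vehicle libraries 3 and 5 it was -0.84 for Bglap, 0.39 for H2-K1, 2.14 for Ifit1, 0.16 for Oas1a, -0.26 for Pdgfrb, -0.097 for Runx2 and -1.03 for Thy1. With old vehicle libraries 2, 8 and 9 it was -0.46 for Bglap, 0.079 for Ifit1 and -0.12 for Thy1. For Cdkn2a it was -0.20 with the block, -0.86 with limma-voom and -0.88 without labelled melatonin library 1. Bglap was at -0.075 with limma-voom, -0.40 without labelled melatonin library 1, -0.13 without old vehicle library 3 and -0.15 without old vehicle library 5. Nsd2 was at -0.25 without labelled melatonin library 3, -0.0045 without old vehicle library 1 and -0.076 without old vehicle library 5. Comp was at 1.37 without old vehicle library 1 and 0.11 without labelled melatonin library 3. Trp53 was at -0.17 without labelled melatonin library 3, Thy1 at -0.055 without old vehicle library 3 and -0.056 without old vehicle library 5, and Ifit1 at 0.60 without old vehicle library 5. Over all fits that left out 1 library, the log2 change ran from -0.40 to 1.22 for Bglap, -0.88 to 1.45 for Cdkn2a, -1.82 to 0.60 for Ifit1, -0.25 to 1.16 for Nsd2, -1.87 to 1.37 for Comp, -0.056 to 4.32 for Thy1 and -0.17 to 0.24 for Trp53. Depth was alike in all libraries, and genes near or under 1 CPM, such as Bglap, rest on few counts.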

Other observations

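Glycolysis and hypoxia genes were lower for 14 of 18 members, with a median log2 change of -0.25. It was -0.11 (7 of 18 higher) without old vehicle libraries 3 and 5 and -0.091 (8 of 18 higher) with the covariate. Aldoa, the aldolase of glycolysis, was at 879.7, 1399.6 and 1289.7 CPM in old vehicle and 705, 600.1 and 744 CPM in labelled melatonin libraries (log2 change -0.80 ± 0.25). Ldha, which makes lactate from pyruvate, was at 604, 804 and 703 CPM and 443, 509 and 536 CPM (log2 change -0.50 ± 0.20). For both genes all 3 labelled melatonin libraries lay below all 3 old vehicle libraries.

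Ribosomal protein genes, whose counts can be shared with processed pseudogenes, were higher for 26 of 26 members, with a median of 0.34. For 24 of the 26 the highest level was in labelled melatonin library 5, against 23.9% of all genes, and the median was 0.091 without that library and -0.029 with the covariate. Lysosome genes were lower for 20 of 20 members, with a median of -0.63, or -0.37 without old vehicle library 3, -0.087 without old vehicle libraries 3 and 5 and 0.19 with the covariate. Among osteoclast genes, Acp5, the acid phosphatase TRAP of osteoclasts and macrophages, was at 0.90, 6.47 and 99.8 CPM in old vehicle and 0.0932, 0.352 and 0.15 CPM in labelled melatonin libraries, high mainly in old vehicle library 5.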
